A study of Mus musculus with 54 samples.

Results

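The 10 core genes of the circadian clock, Arntl, Clock, Npas2, Per1, Per2, Per3, Cry1, Cry2, Nr1d1 and Nr1d2, were followed in heart and liver RNA of mice with altered mitochondrial translation. They were taken by gene name from the 54356 genes listed for each tissue, and all 10 were found in both. The mice were C57BL/6 males aged 20 weeks that carried no mutation (Mrps12+/+) or were homozygous for 1 of 2 alleles of Mrps12, which encodes a protein of the small mitochondrial ribosomal subunit. The ep allele makes mitochondrial protein synthesis error-prone and the ha allele makes it hyper-accurate. Both alleles are carried in every tissue. All 3 genotypes ate a high-fat diet with 42% of its energy from fat. Wild types were litter-mates matched for age, and each genotype had 3 mice per tissue. The 54 libraries were 3 technical libraries for each mouse and tissue, and the tables hold 1 pooled column per mouse and tissue. The mice lived under a 12-h light and dark schedule with lights on from 7 am to 7 pm. The time of day at which tissues were taken, and whether mice had fasted, is not given in the sources used here, so that a different clock state and a different collection time cannot be told apart. The labels do not say whether a heart and a liver with the same number came from the same animal.

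The mammalian clock is a feedback loop of transcription. ARNTL (also called BMAL1) pairs with CLOCK or its relative NPAS2 and binds E-boxes to switch on the Per, Cry and Nr1d genes, and PER and CRY proteins then inhibit that pair. The nuclear receptors NR1D1 and NR1D2 (REV-ERBα and REV-ERBβ) close a second loop by repressing Arntl, Clock and Npas2 through ROR elements, so that in heart and liver the transcripts of the activators and of Nr1d1 normally peak at opposite times of day. Feeding time, glucocorticoids and body temperature set the phase of these peripheral clocks.

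The elements through which the arms of the loop act on each other could be read in the RefSeq promoter windows (GRCm38.p6, 250 bases before to 50 after a transcription start), which exist for 9 of the 10 genes in 13 windows. Per2 had no entry. Searched on both strands were the E-box CACGTG, its variant CACGTT, the D-box TTANGTAA bound by DBP, TEF and HLF, and TAGGTCA, the core of a ROR element. Of all 32851 windows of the same length, 7.15% held the E-box, 4.68% the variant, 2.32% the D-box and 2.61% the ROR core. Among the clock genes the E-box stood in the windows of Per1 and Cry1, the variant in those of Cry1, Cry2 and Nr1d1, the D-box in that of Per3 and the ROR core in that of Arntl. The stretches printed here are a selection, 1 or 2 for each kind of element, and the variants of Cry1 and Cry2 are not printed. Capitals mark the matching letters, and each sequence runs 5′ to 3′ on the strand of its gene, so that the variant in Nr1d1 reads as the reverse complement of CACGTT.
Arntl, ROR element core, chr7:113207531-113207557, plus strand: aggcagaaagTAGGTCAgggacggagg
Nr1d1, E-box variant, chr11:98775388-98775417, minus strand: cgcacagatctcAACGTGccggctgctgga
Per1, E-box, chr11:69098771-69098800, plus strand: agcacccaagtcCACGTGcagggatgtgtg
Per3, D-box, chr4:151044851-151044882, minus strand: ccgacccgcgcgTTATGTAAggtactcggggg
Per3, D-box, chr4:151044804-151044835, minus strand: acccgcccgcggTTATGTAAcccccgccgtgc
Cry1, E-box, chr10:85185097-85185126, minus strand: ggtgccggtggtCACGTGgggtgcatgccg
The Per3 window held its pair of D-boxes 205 and 158 bases before the start, and the Arntl match lay 30 bases after a RefSeq start of that gene, in a 5′ UTR of the GENCODE annotation. These matches describe the letters in the windows and say nothing of binding in these tissues, which was not measured.

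Pooled columns held 11202866 to 51480271 reads on genes in hearts and 21238039 to 81518244 in livers. The shallowest column was the heart of Mrps12ha/ha mouse 2, which also had the lowest array weight, limma's measure of how closely a column follows its group. With that mouse left out, 4320 genes passed the test of Mrps12ha/ha against Mrps12+/+ hearts, where 5 of 16057 passed with all mice. Calls in the heart are therefore given with and without it. The next shallowest heart was that of Mrps12ha/ha mouse 1 (17916522 reads), and the remaining hearts held at least 33825970. In Mrps12ha/ha mice 1 and 2, Arntl rested on 143 and 79 reads and Npas2 on 47 and 40. The part of depth in the clock results was not tested. Mrps12 itself was at 1156, 1052 and 1028 normalized counts in Mrps12+/+, 1292, 1066 and 1124 in Mrps12ep/ep and 1333, 1084 and 1397 in Mrps12ha/ha hearts, and at 1508, 1707 and 1737, 1790.5, 1780.2 and 1698 and 1626, 1914.5 and 1847 in livers in the same order. A point mutation need not change this level, so that it does not check the labels. All 4 cardiomyocyte markers were abundant in every heart (summed levels of 1716410 to 2972583), as were all 4 hepatocyte markers in every liver (3805162 to 5963282). Summed levels of 5 atrial markers ranged from 8108 to 162740 in Mrps12+/+, 1682 to 377881 in Mrps12ep/ep and 4551 to 10279 in Mrps12ha/ha hearts, with Bmp10 at 0 in 2 of the 9. Both erythroid markers were detected in every heart, at sums of 57844 to 149332 in Mrps12+/+, 84637 to 137718 in Mrps12ep/ep and 125198 to 923096 in Mrps12ha/ha.

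Per kilobase of exon, Nr1d1 was the most abundant and Npas2 the least abundant clock transcript in both tissues. In the heart, Nr1d1 averaged 2016 ± 565 normalized counts per kilobase (SD over 9 mice), followed by Nr1d2 (895 ± 153) and Per1 (775 ± 126), then Per2 (232 ± 55.5), Cry2 (209 ± 35.2), Clock (111 ± 17.3), Per3 (93.2 ± 38.9), Cry1 (89.0 ± 8.19), Arntl (61.1 ± 21.8) and Npas2 (43.0 ± 19.6). Between neighbours in this order the ranges of the 9 hearts were apart for Nr1d1 and Nr1d2, Per1 and Per2, and Cry2 and Clock, and they overlapped for the other neighbours. The liver had the same order, except that Cry2 (319 ± 68.9 per kilobase) stood above Per2 (203 ± 34.1). Liver Npas2 was at 7.12 ± 6.82 per kilobase and rested on 2 to 155 reads per liver, the thinnest measurement of the set, whereas the other clock genes had at least 59 reads in every liver and all 10 had at least 40 in every heart. In the liver the neighbours whose ranges were apart were Per1 and Cry2, Per2 and Clock, and Cry1 and Arntl.

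**Figure D1:**
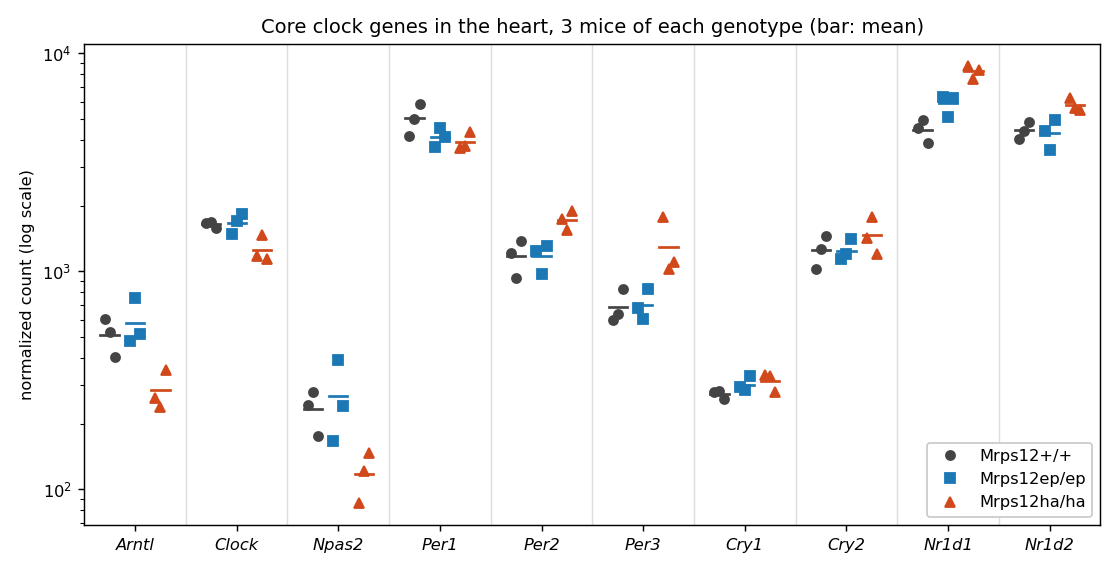
Normalized counts (log scale) of the 10 clock genes in the heart, 1 point per mouse, 3 mice of each genotype, with a bar at the mean. The 3 Mrps12ha/ha hearts lie below all Mrps12+/+ hearts for Arntl, Clock and Npas2 and above them for Per2, Per3, Nr1d1 and Nr1d2.

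In the heart, the activators were lower and 4 of the repressors were higher in Mrps12ha/ha than in Mrps12+/+ mice. Arntl (ENSMUSG00000055116 on chromosome 7, 113207465 to 113314126 in GRCm38), the activator without which the loop stops, was at 604.5, 525 and 406 normalized counts in Mrps12+/+ mice 1, 2 and 3, and at 263, 239 and 354 in Mrps12ha/ha mice 1, 2 and 3. The highest Mrps12ha/ha heart was thus below the lowest Mrps12+/+ heart, and the log2 fold change was -0.84 with a 95% interval from -1.36 to -0.33 (adjusted p = 0.191, limma). Npas2, the partner that can stand in for CLOCK, was at 243, 279 and 176 and 86.5, 121 and 147 in the same order, with the groups apart and the largest log2 fold change of the set in size (-0.98 with a 95% interval from -1.72 to -0.24). Clock, which encodes ARNTL's main partner and a histone acetyltransferase, was at 1675, 1683 and 1582 in Mrps12+/+ and 1171, 1468 and 1138 in Mrps12ha/ha hearts. Its groups were also apart, although its log2 difference of -0.40 was smaller than those of the other activators (adjusted p of 0.212 for Clock and 0.213 for Npas2, limma).

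Nr1d1 (ENSMUSG00000020889 on chromosome 11, 98767932 to 98775333), the repressor of the second loop, was at 4551, 4936 and 3898 in Mrps12+/+ and 8764, 7653 and 8359 in Mrps12ha/ha hearts, means of 4462 ± 525 and 8258.5 ± 562 (SD, n = 3 each). The groups were far apart, and the log2 fold change was 0.89 with a 95% interval from 0.60 to 1.19, with the lowest adjusted p of the 10 genes (0.0935, limma, 0.00306 to 0.299 over the alternatives). Its paralog Nr1d2 differed by less, at 4062, 4391 and 4842.5 and 6211, 5587 and 5523.5 (log2 fold change 0.38, adjusted p = 0.214, limma). Of the 3077 exon bases of Nr1d1, 263 overlap Thra on the opposite strand, and the reads were quantified by strand.

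The Period genes, which encode the partners of CRY in the inhibitory complex, did not behave alike. Per3 (ENSMUSG00000028957 on chromosome 4, 151003652 to 151044665) was at 595, 640.3 and 827 in Mrps12+/+ and 1771, 1021 and 1098 in Mrps12ha/ha hearts, the Mrps12ha/ha mice being all higher and mouse 1 the highest (log2 fold change 0.88 with a 95% interval from 0.38 to 1.39, adjusted p = 0.191, limma). Per2 was at 1215, 928 and 1371 and 1741, 1543 and 1899, again with no overlap (log2 fold change 0.57, adjusted p = 0.208, limma). Per1, which also responds acutely to glucocorticoids and other signals, went the other way, at 4196, 5018 and 5864 and 3696, 3745 and 4354, with overlapping groups and a log2 difference of -0.34 (adjusted p = 0.237, limma). The differences of the Cryptochromes were small. Cry1 was at 279, 282 and 259.7 and 333, 332 and 281, and Cry2 at 1029.9, 1267.5 and 1449 and 1428, 1779 and 1199.9. For both genes the groups overlapped, with log2 intervals from -0.11 to 0.51 for Cry1 and from -0.17 to 0.63 for Cry2.

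None of these differences passed the Benjamini-Hochberg adjustment over all tested heart genes in limma (0 of 10 clock genes, where 0.0311% of all tested genes passed). At an unadjusted p under 0.05, 8 of the 10 differed, 4 higher and 4 lower, where 19.7% of all tested genes did. In 7 of the 10 the groups did not overlap, where 21.2% of all tested genes did not, and the median absolute log2 fold change was 0.48 in the clock genes and 0.29 in all tested genes. With limma-voom on the recovered reads 0 of 10 passed too. Without Mrps12ha/ha mouse 2, 4 of the 10 passed, where 26.9% of all tested genes did, namely Nr1d1 with an adjusted p of 0.00371, Clock with 0.00991, Per3 with 0.0151 and Per2 with 0.0338 (limma). Over all settings the adjusted p ranged from 0.00306 to 0.299 for Nr1d1, 0.00587 to 0.54 for Clock, 0.0113 to 0.527 for Per3 and 0.0124 to 0.54 for Per2. With array weights, which gave that mouse the lowest weight of the hearts (0.167, others 0.47 to 4.93), 7 passed (Arntl, Clock, Npas2, Per2, Per3, Nr1d1 and Nr1d2), where 34.7% of all tested genes did. The sign of the log2 fold change was the same for all 10 genes in all 21 settings run, leaving out each of the 9 hearts included. Exact two-sided permutation tests of the 7 genes whose groups did not overlap each gave p = 0.1, the smallest value that 3 against 3 mice can give.

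Markers of cell types also differed between the genotypes. Cardiomyocyte marker sums were higher in every Mrps12ha/ha heart (2150406 to 2972583) than in all Mrps12+/+ (1846917.5 to 2147976.5) and Mrps12ep/ep hearts (1716410 to 2134156). Actc1, 1 of these markers, went the other way in Mrps12ha/ha mice 1 and 3 (238389 and 204154.5), below every other heart. Atrial marker sums were 4551 to 10279 in the 3 Mrps12ha/ha hearts, 8108 in Mrps12+/+ mouse 1 and 1682 in Mrps12ep/ep mouse 1. Arntl was at 604.5 and 479.5 and Nr1d1 at 4551 and 6308 in the latter pair. Atrial sums were 162740 and 118580 in Mrps12+/+ mice 2 and 3 and 377881 and 92951 in Mrps12ep/ep mice 2 and 3. In these hearts Arntl was at 525, 406, 752 and 516 and Nr1d1 at 4936, 3898, 5115 and 6242, in the same order. Erythroid sums were higher in Mrps12ha/ha mice 1 and 3 (304375 and 923096) than in every Mrps12+/+ heart, and that of Mrps12ha/ha mouse 2 (125198) was within the Mrps12+/+ range. The part of these markers in the clock results was not tested. In these bulk samples, fewer cells of a type and less RNA per cell cannot be told apart.

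In Mrps12ep/ep hearts the clock genes lay close to Mrps12+/+. Again 0 of 10 passed in limma, where 0% of all tested genes passed, and 1 of 10, Nr1d1, had an unadjusted p under 0.05, where 1.69% of all tested genes did. The groups did not overlap for 2 of 10 genes (background 8.03%). Nr1d1 was at 6308, 5115 and 6242 in Mrps12ep/ep mice 1, 2 and 3, between the 2 other genotypes and overlapping neither (log2 fold change over Mrps12+/+ 0.40 with a 95% interval from 0.10 to 0.70, adjusted p = 1, limma). Cry1 was at 293, 285 and 329.7, just above all Mrps12+/+ hearts, with a log2 difference of 0.14. The activators overlapped. Arntl was at 479.5, 752 and 516, Npas2 at 167, 393 and 242 and Clock at 1489.9, 1693 and 1829. The highest Arntl and the highest Npas2 of the 9 hearts were both those of Mrps12ep/ep mouse 2. Among the remaining genes, Per1 was at 3734, 4549 and 4132, Per2 at 1236, 972.5 and 1312, Per3 at 677, 605 and 829, Cry2 at 1133, 1199.8 and 1402 and Nr1d2 at 4389, 3606 and 4948.5. For these 5 and Clock and Arntl the 95% intervals of the log2 difference all held 0 and reached at most 0.69 in either direction.

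The 2 mutants were also compared directly, with the same Mrps12ha/ha hearts as above. Arntl (-1.02 on the log2 scale), Clock (-0.41) and Npas2 (-1.12) were lower in all 3 Mrps12ha/ha hearts than in every Mrps12ep/ep heart, and Per2 (0.56), Per3 (0.85), Nr1d1 (0.49) and Nr1d2 (0.43) were higher. These 7 of 10 had non-overlapping groups and unadjusted p-values under 0.05, where 16.6% and 17.9% of all tested genes did. Again 0 of 10 passed the adjustment in limma, the lowest adjusted p being 0.216 for Arntl, where 0.0249% of all tested genes passed. Without Mrps12ha/ha mouse 2, 5 passed (Arntl, Clock, Per2, Per3 and Nr1d1), where 23.2% of all tested genes did, with adjusted p-values of 0.0104 for Clock (0.00195 to 0.54 over all settings) and 0.0393 for Per2 (0.0283 to 0.54) in limma. With array weights 6 passed, those 5 and Npas2, where 39.3% of all tested genes did.

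**Figure D2:**
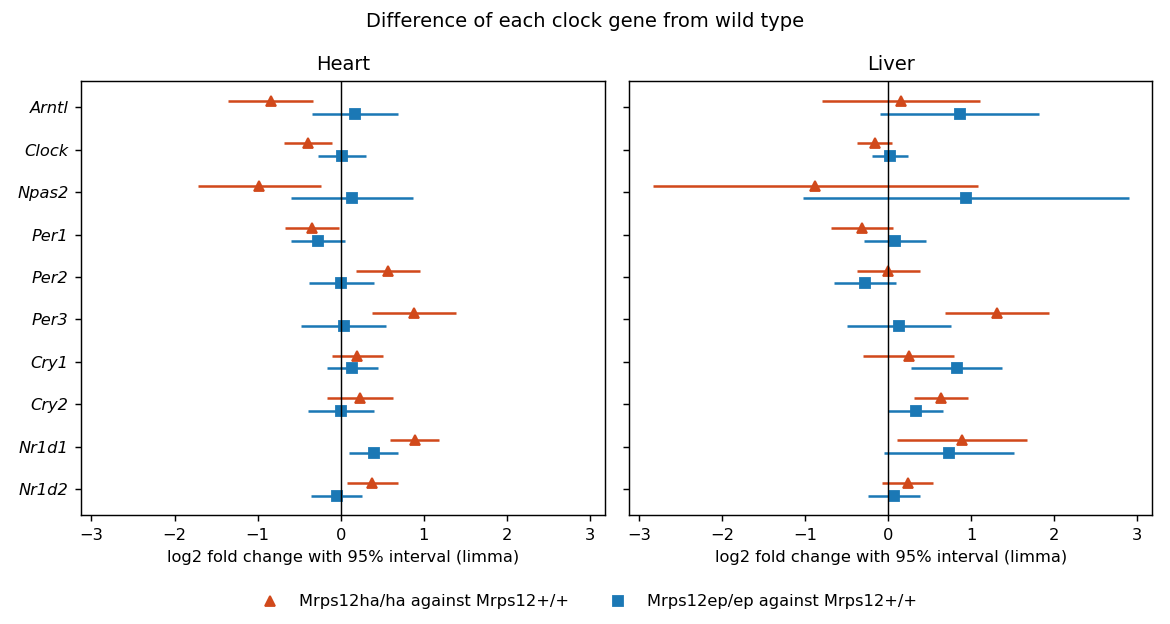
Log2 fold changes (points) with 95% intervals from limma (lines) of each clock gene in Mrps12ha/ha (triangles) and Mrps12ep/ep (squares) against Mrps12+/+ mice, heart on the left and liver on the right. In the heart, intervals of Mrps12ha/ha leave out 0 for 8 of the 10 genes, and in the liver for Per3, Cry2 and Nr1d1.

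**Figure D3:**
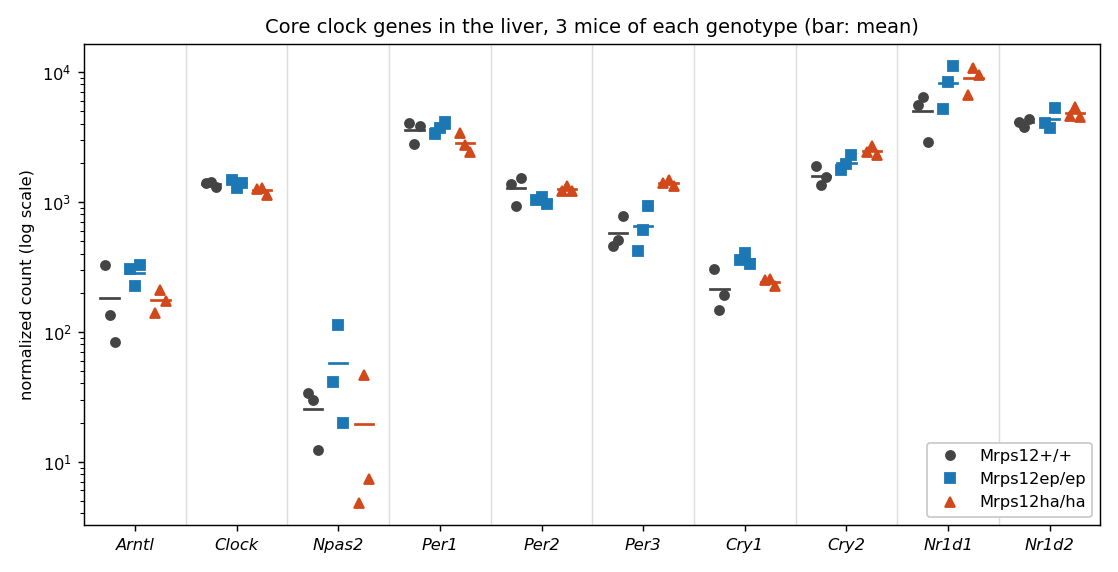
Normalized counts (log scale) of the 10 clock genes in the liver, 1 point per mouse, 3 mice of each genotype, with a bar at the mean. Per3 and Cry2 in Mrps12ha/ha livers lie above all Mrps12+/+ livers, and Npas2 spans from 4.8 to 112.

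In the liver, 4 of the repressors were again higher in Mrps12ha/ha than in Mrps12+/+ mice, Per3 by the most, whereas of the activators only Clock had groups that were apart. Per3 was at 459.7, 504 and 775 in Mrps12+/+ mice 1, 2 and 3 and at 1389.9, 1480.4 and 1327 in Mrps12ha/ha mice, 2.48-fold higher by the fit (log2 fold change 1.31 with a 95% interval from 0.68 to 1.93, adjusted p = 0.119, limma). The Mrps12ha/ha livers were close to each other (SD of 77.3 around 1399) and well above every other liver. Cry2, a CRY family repressor of ARNTL and CLOCK, was at 1883, 1348 and 1549.8 and 2399, 2697 and 2284, also with no overlap (log2 fold change 0.64 with a 95% interval from 0.31 to 0.96, adjusted p = 0.134, limma). Nr1d1 was at 5605, 6465 and 2906 in Mrps12+/+ and 6671, 10743 and 9411 in Mrps12ha/ha livers. The groups were apart but broad, Mrps12+/+ mouse 3 being the lowest of all 9 livers, and the log2 difference was 0.89 with a 95% interval from 0.11 to 1.67 (adjusted p = 0.302, limma). Nr1d2 was at 4091, 3795 and 4367 and 4555, 5397 and 4493, slightly higher in each Mrps12ha/ha liver, with a log2 difference of 0.23.

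Clock was at 1386, 1421 and 1295.5 and 1249.5, 1285 and 1135, lower in each Mrps12ha/ha liver by a small amount (log2 fold change -0.16). Arntl was at 325, 135 and 83.2 in Mrps12+/+ livers, a wide spread within a single genotype, and at 140.4, 209 and 173 in Mrps12ha/ha livers, all within the Mrps12+/+ range. Its log2 difference of 0.15 became -0.29 without Mrps12+/+ mouse 3, whose Arntl and Nr1d1 were the lowest of the tissue, so that no direction can be given. Npas2 was at 33.6, 29.9 and 12.2 and 4.8, 46.4 and 7.3, the lowest of which is 2 reads, and its interval from -2.83 to 1.08 is too wide to show a difference at this depth. Per1 (4019, 2799 and 3813 against 3365, 2739 and 2417), Per2 (1377, 929.9 and 1520.5 against 1219, 1323 and 1216.5) and Cry1 (304, 146 and 191 against 249.9, 255 and 223.5) overlapped.

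None of the 10 passed the adjustment in limma (background 0.00653%), and 3 of 10, Per3, Cry2 and Nr1d1, had an unadjusted p under 0.05, all higher, where 14.1% of all tested genes did. The groups did not overlap for 5 of 10, where 19.9% of tested genes did not. In limma-voom, with array weights and with each of the 9 livers left out, 0 of 10 passed as well. Of the 7 clock genes whose groups were apart in hearts and the 5 that were in livers, 4 were shared and had the same direction in both, namely Clock (lower) and Per3, Nr1d1 and Nr1d2 (higher). That is 4 of 7 and 4 of 5. How many of all tested genes were apart in both tissues was not counted, and hearts and livers may come from the same mice. The tissues were normalized separately, and the difference between them was not tested. Summed hepatocyte markers were higher in Mrps12ha/ha (5321471 to 5963282) than in Mrps12+/+ livers (3805162 to 5113498), and Mrps12+/+ mice 1 and 2 held skeletal muscle markers at sums of 9991 and 8531, where the other 7 livers had 17.8 to 96.4. Mrps12ha/ha mouse 3 held cardiomyocyte markers at 6490. The part of these differences in the clock results was not tested.

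In Mrps12ep/ep livers the share of clock genes apart from Mrps12+/+ was near that of all tested genes, and the gene apart was Cry1. Cry1 was at 304, 146 and 191 in Mrps12+/+ and 356, 400.4 and 335 in Mrps12ep/ep livers, apart by a log2 fold change of 0.83 with a 95% interval from 0.28 to 1.37 (adjusted p = 0.42, limma). It was the only clock gene whose groups did not overlap, 1 of 10 where 12.8% of all tested genes did not. With Cry2 (1743, 1965 and 2295 in Mrps12ep/ep, log2 fold change 0.33), 2 of 10 had an unadjusted p under 0.05 (background 9.74%), and 0 of 10 passed the adjustment in limma and in limma-voom (background 0.00653%). Arntl was at 305, 225.5 and 324 in Mrps12ep/ep livers, Npas2 at 40.8, 112 and 20 and Clock at 1475, 1286.5 and 1405. Arntl and Npas2 had the widest intervals, from -0.09 to 1.82 and from -1.02 to 2.90. Nr1d1 was at 5212, 8408 and 11135, mouse 1 being below Mrps12+/+ mice 1 and 2 and mouse 3 the highest of all livers (log2 fold change 0.74). Per1 (3312, 3719 and 4115), Per2 (1037, 1099 and 954), Per3 (420.2, 605 and 925.5) and Nr1d2 (4049, 3695 and 5262) overlapped Mrps12+/+.

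Between the mutants, Per3 (2.26-fold) and Per2 (1.22-fold) were higher in every Mrps12ha/ha liver than in every Mrps12ep/ep liver, and Arntl (-0.71 on the log2 scale), Clock (-0.18) and Cry1 (-0.58) were lower. The groups were thus apart for 5 of 10 genes (background 17.8%). An unadjusted p under 0.05 was reached by 3 of 10, Per3, Per1 and Cry1 (background 8.62%), and 0 of 10 passed in limma (background 0.00653%), with adjusted p-values of at least 0.417. Comparisons of the mutants with Mrps12+/+, and with each other, share mice and are not independent.

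The ratio of Nr1d1 to Arntl within a mouse does not depend on how the columns are scaled to each other. In the heart it was 7.53, 9.40 and 9.59 in Mrps12+/+, 13.2, 6.80 and 12.1 in Mrps12ep/ep and 33.3, 32.1 and 23.6 in Mrps12ha/ha mice 1, 2 and 3. The lowest Mrps12ha/ha heart was thus above all other hearts, with means of 29.7 ± 5.28 in Mrps12ha/ha, 10.7 ± 3.41 in Mrps12ep/ep and 8.84 ± 1.14 in Mrps12+/+ (SD, n = 3). In the liver the ratio was 17.2, 47.9 and 34.9 in Mrps12+/+, 17.1, 37.3 and 34.4 in Mrps12ep/ep and 47.5, 51.4 and 54.5 in Mrps12ha/ha mice. The Mrps12ha/ha livers were above all Mrps12ep/ep livers, but the lowest of them was below Mrps12+/+ mouse 2.

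**Figure D4:**
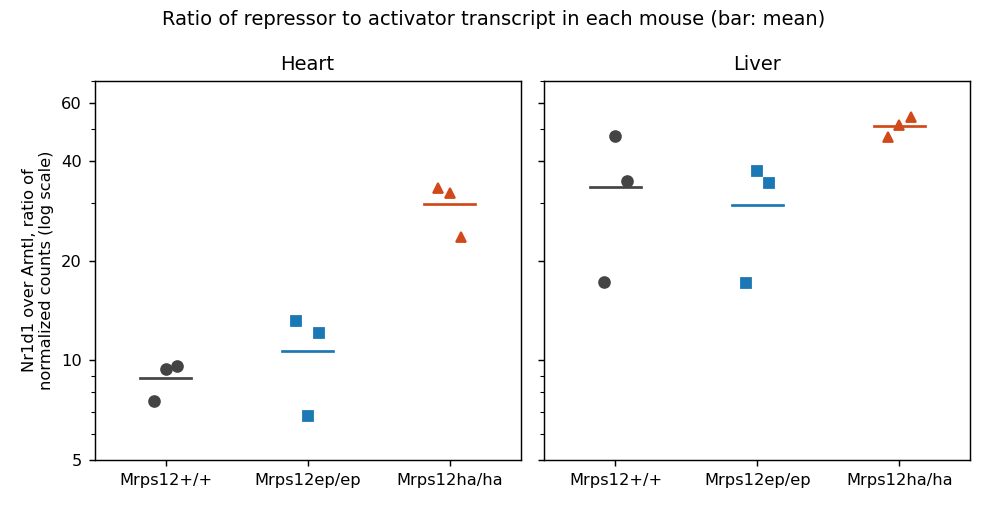
Ratio of Nr1d1 to Arntl normalized counts (log scale) in each mouse, heart on the left and liver on the right, with a bar at the mean of 3 mice. In the heart the Mrps12ha/ha mice (23.6 to 33.3) lie above all others (6.80 to 13.2), and in the liver they lie at 47.5 to 54.5, within reach of Mrps12+/+ mouse 2 (47.9).

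Relations between clock genes over the 9 mice of a tissue were computed for 6 pairs in both tissues, 12 in all, with exact two-sided permutation p-values adjusted over the 12. In the heart, Arntl and Npas2 went together (Pearson r = 0.94, Spearman rho = 0.95, adjusted exact p = 0.00331 and 0.00423). Arntl and Per3 went in opposite directions (r = -0.85, rho = -0.88, adjusted exact p = 0.0159 and 0.0185). The Mrps12ha/ha hearts sit at one end of both relations. Within genotypes, on values centred on the genotype means, r was 0.81 for Npas2 and -0.49 for Per3, with adjusted exact p = 0.444 and 0.59, so that neither passed there. Over the 6 Mrps12+/+ and Mrps12ep/ep hearts alone r was 0.89 and -0.74 (adjusted exact p = 0.35 and 0.389). Without the 2 mice farthest from the median of Arntl, Mrps12ha/ha mice 1 and 2, r was 0.92 for Npas2 (adjusted exact p = 0.0452) and -0.85 for Per3 (0.0651).

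Arntl and its repressor Nr1d1 had r = -0.68 over the 9 hearts (rho = -0.65, adjusted exact p = 0.116 and 0.16), but r = -0.06 within genotypes. The pair Nr1d1 and Nr1d2 had r = 0.73 and 0.37 in the same order, Arntl and Cry2 -0.72 and -0.70, and Per1 and Per2 -0.36 and 0.08, none of which passed. Without Mrps12+/+ mouse 3, the heart with the lowest Nr1d1, Arntl and Nr1d1 (r = -0.87, adjusted exact p = 0.0241) and Nr1d1 and Nr1d2 (r = 0.90, adjusted exact p = 0.0211) passed as well. This heart also held brown adipocyte markers at a sum of 12104, where the other 8 had 1087 to 1736. Without Mrps12+/+ mouse 1 the relation of Arntl and Per3 did not (r = -0.83, adjusted exact p = 0.0588). With each heart left out in turn the adjusted exact p was 0.00357 to 0.0588 for Arntl and Per3, 0.0241 to 0.324 for Arntl and Nr1d1 and 0.0211 to 0.303 for Nr1d1 and Nr1d2. In the liver none of the 6 relations passed, with r from -0.29 (Arntl and Per3) to 0.51 (Arntl and Nr1d1, rho = 0.27, adjusted exact p = 0.325). Without Mrps12+/+ mouse 3 the latter was -0.03.

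**Figure D5:**
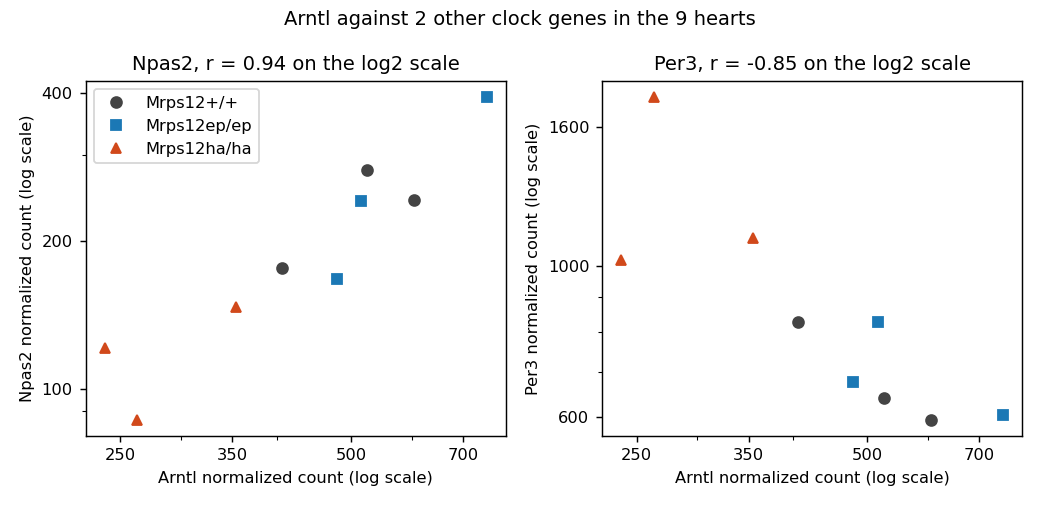
Normalized counts (log scales) of Npas2 (left) and Per3 (right) against Arntl in the 9 hearts, 1 point per mouse, shaped by genotype. Npas2 increases and Per3 decreases along Arntl (r = 0.94 and -0.85), and the 3 Mrps12ha/ha hearts lie at the low end of Arntl.

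Of 15 genes that modify the loop (among them Rora, Rorb, Bhlhe40, Bhlhe41, Ciart, Arntl2, Csnk1d, Csnk1e, Fbxl21, Btrc, Timeless, Gsk3b and Sirt1), all were tested in hearts and 14 in livers, where Rorb was listed at 0 in every mouse. None passed in any of the 6 comparisons in limma with all mice. Without Mrps12ha/ha mouse 2, 4 of 15 passed in Mrps12ha/ha against Mrps12+/+ hearts (among them Arntl2, Btrc and Gsk3b, a kinase gene), where 26.9% of all tested genes did. Against Mrps12ep/ep hearts 4 of 15 passed (Bhlhe40, Arntl2, Btrc and Gsk3b), where 23.2% of all tested genes did. With array weights the counts were 6 and 5, where 34.7% and 39.3% of all tested genes passed. In Mrps12ha/ha against Mrps12+/+ hearts, 6 were higher and 9 lower, 1 and 4 of them at an unadjusted p under 0.05 (background 19.7%), with a median log2 fold change of -0.06, where that of all tested genes was -0.02. The ROR receptor Rorb was at 44.8, 69.2 and 44.7 in Mrps12+/+ and 18.4, 21.1 and 31.1 in Mrps12ha/ha hearts (-1.14 on the log2 scale). Bhlhe40, a repressor that competes at E-boxes, was at 2787, 2674 and 2377 and 1889, 2205 and 2113 (-0.34), and Btrc, a ubiquitin ligase subunit for PER, at 706, 652 and 630.2 and 502.5, 604 and 471 (-0.34). Arntl2, the paralog of Arntl, was higher where Arntl was lower, at 133.5, 99.5 and 129.6 and 189.6, 136 and 203 (0.53). These 4 of 15 had groups that did not overlap, a share near the 21.2% of all tested genes. The same 4 of 15 were apart between Mrps12ha/ha and Mrps12ep/ep hearts, where 16.6% of all tested genes were (Rorb -0.81, Bhlhe40 -0.56, Btrc -0.37 and Arntl2 0.58 on the log2 scale). In Mrps12ep/ep against Mrps12+/+ hearts only Ciart (-0.47) and the kinase gene Csnk1e (0.11) of the 15 were apart (background 8.03%).

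In the liver, Bhlhe41, a relative of Bhlhe40, was at 49, 88.9 and 104 in Mrps12+/+ and 178.5, 469 and 246 in Mrps12ha/ha mice (1.82 on the log2 scale), the largest difference of this list. Its groups were apart, as were those of 3 of the 14 tested genes, all higher (background 19.9%). The median log2 fold change of the list was 0.03, where that of all tested genes was -0.02. Against Mrps12ep/ep livers, Bhlhe41 (1.55) was again higher and Csnk1d (-0.13) lower in all Mrps12ha/ha livers. There 2 of 14 genes were higher and 1 was lower in all mice (background 17.8%). In Mrps12ep/ep against Mrps12+/+ livers, Csnk1d (0.20) was higher and Csnk1e (-0.16) lower in all 3 mice. They were the only genes of the 14 that were apart (background 12.8%). These shares in the liver were near those of all tested genes.

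The clock output genes Dbp and Tef, which encode D-box binding factors, stood with the repressors. Dbp, a direct E-box target, was at 1732, 2192 and 1735 in Mrps12+/+, 2301, 1729.8 and 1978 in Mrps12ep/ep and 5471, 3941 and 2945 in Mrps12ha/ha hearts (1.09 on the log2 scale for Mrps12ha/ha over Mrps12+/+). In livers it was at 2393, 4431 and 4526, 2652, 4342 and 5813 and 6926, 9149 and 7899 in the same order (1.13). Tef differed by 0.46 in the heart and 0.51 in the liver, and both genes had non-overlapping groups in both tissues. None of the 8 output genes (Dbp, Tef, Hlf, Nfil3, Noct, Nampt, Wee1 and Usp2) passed in limma in any comparison with all mice, the adjusted p of Dbp being 0.159 for hearts (0.00993 to 0.457 over the alternatives) and 0.182 for livers (0.0835 to 0.465). Without Mrps12ha/ha mouse 2, 3 of 8 passed in Mrps12ha/ha against Mrps12+/+ hearts (Dbp, Nampt and Usp2), where 26.9% of all tested genes did. Against Mrps12ep/ep hearts 1 of 8 passed, Dbp, where 23.2% of all tested genes did. With array weights 3 and 2 passed, where 34.7% and 39.3% of all tested genes did. With all mice, Nampt (-0.58 on the log2 scale) and Usp2 (-0.40) were lower in Mrps12ha/ha than in Mrps12+/+ hearts, unlike Dbp. In livers Nfil3 passed against Mrps12+/+ without Mrps12+/+ mouse 2, and against Mrps12ep/ep in a fit of only these 2 genotypes. The median log2 fold change of the 8 in Mrps12ha/ha against Mrps12+/+ was -0.20 in the heart, with 2 of 8 apart (background 21.2%), and 0.37 in the liver, with 6 of 8 apart (background 19.9%). Of those 6, the deadenylase gene Noct was the only one lower, at 14579.6, 5871 and 4039 in Mrps12+/+ and 3396, 1318 and 1240.4 in Mrps12ha/ha livers (-1.99), whereas Wee1, a cell cycle kinase gene under clock control, was higher by 0.95 and Usp2, which encodes a deubiquitinase, by 0.63. Between the mutants, 2 of 8 were apart in hearts (background 16.6%), namely Dbp (2-fold higher in Mrps12ha/ha) and Tef (0.56 on the log2 scale). In livers 3 of 8 were higher and 2 lower in every Mrps12ha/ha mouse (background 17.8%). Among them were Noct (-2.29), Wee1 (1.29), Dbp (0.97) and Nfil3 (-0.93). None of the 8 was apart between Mrps12ep/ep and Mrps12+/+ mice in either tissue (background 8.03% in hearts and 12.8% in livers).

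Genes driven by cues that reset peripheral clocks were read beside the clock genes. Of the glucocorticoid targets Fkbp5, Tsc22d3, Sgk1 and Zbtb16 and the cold-inducible Cirbp and Rbm3, none passed in limma in any comparison with all mice. Tsc22d3 passed in livers without Mrps12+/+ mouse 3, both in Mrps12ha/ha against Mrps12+/+ (adjusted p of 0.00886 to 0.645 over the alternatives) and against Mrps12ep/ep (0.0168 to 0.91), where it also passed in a fit of only these 2 genotypes. Cirbp passed in Mrps12ha/ha against Mrps12ep/ep hearts with array weights (0.0102 to 0.551). Tsc22d3 was lower in Mrps12ha/ha than Mrps12+/+ hearts, at 5526, 5555 and 6537 and 3529, 3977.5 and 5478 (-0.46 on the log2 scale), the only 1 of the 6 that was apart there (background 21.2%). Sgk1 was lower in Mrps12ha/ha livers, at 1951, 1045 and 1624 and 785, 459 and 654 (-1.27), again 1 of 6 (background 19.9%). Between the mutants 1 of 6 was apart in the liver, Tsc22d3 (-1.28, background 17.8%). Fkbp5, which encodes a glucocorticoid receptor chaperone, overlapped between Mrps12+/+ and Mrps12ha/ha mice in both tissues, at 2275, 2179 and 3811 and 2301, 2235 and 4595 in hearts and 7102, 4736 and 6517 and 8659, 5782 and 7308 in livers. The part of these cues in the clock levels was not tested.

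The genes outside the set whose log2 levels over the 9 mice were most like Arntl in the heart were Cttnbp2nl (r = 0.99), Lats2 (0.96) and Ugt1a7c (0.96), and the most unlike were Olfr107 (-0.97), Gm10461 (-0.96) and Pitx3 (-0.95), the last of which, like Olfr107, was at no more than 27.2 normalized counts in every heart. In the liver they were Acmsd (0.98), Ttc39b (0.97) and Atp1b3 (0.97), and Pex19 (-0.99), Lrrc46 (-0.98) and Bace1 (-0.98). Acmsd, which encodes an enzyme of tryptophan breakdown, ranged from 185 to 3068 normalized counts over the 9 livers. These are the extremes among all tested genes over 9 mice, which also share genotype and depth, and they are given as a description.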

How the data were processed

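RNA from heart and liver of 9 mice (3 Mrps12+/+, 3 Mrps12ep/ep, 3 Mrps12ha/ha) was sequenced on the Illumina HiSeq with 3 technical libraries each. The authors trimmed reads with Trim Galore 0.4.1 and cutadapt 1.18, checked them with FastQC 0.11.8, quantified transcripts with Salmon 1.1.0 (stranded library type) on GENCODE vM21 (GRCm38.p6) and normalized gene counts per tissue with DESeq2, without mitochondrial transcripts. The values used are these deposited normalized counts as the authors gave them, 1 pooled column per mouse and tissue. Columns were joined to mice by the sample number in the labels. The authors' tables of fold changes and p-values were not used.

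Low values were whole multiples of 1 step per column (100% within 0.1 read), and dividing by it gave reads and depth. Values went into limma 3.58.1 (R 4.3.3) on the log2 scale after adding 1 (lmFit, eBayes with trend), all 3 genotypes of a tissue in 1 fit, over genes with a mean of at least 10 (16057 in the heart, 15314 in the liver), with Benjamini-Hochberg adjustment over these and a threshold of 0.05. Exact permutation tests of the genotypes and correlations with genes outside the set were also run in R. The relations between clock genes and their exact p-values used Python 3.11.15, with ranks from scipy 1.17.1. The fit was tested on simulated data. Fold changes understate those of low genes. Alternatives were other pseudocounts (0.1 and 8), filters (none, or a mean of at least 50), scalings, weights, robust eBayes, a fit of only 2 genotypes, a replicate block, limma-voom and leaving out each mouse. The members, lists and pairs of genes were chosen with earlier results of these data known. Named are the 10 clock genes, Mrps12, up to 4 genes of a list and comparison that passed or whose 3 mice all lay on 1 side, largest log2 fold change first, and the 3 genes most and least like Arntl in each tissue. Fkbp5, liver Tef and the genes that passed only under an alternative were named besides, after their values were seen, and some genes of the lists are not reported here. Promoter windows came from RefSeq tables of the same build. Sequencing lanes and dates of extraction are not given in the sources used here.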

Additional observations from a re-analysis of the deposited data

Results flagged for a closer look

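Csnk1e, which encodes a kinase of the PER proteins, lay on opposite sides of Mrps12+/+ in the 2 tissues of Mrps12ep/ep mice. It was higher than in every Mrps12+/+ mouse in all 3 Mrps12ep/ep hearts (2547, 2357 and 2298.5 against 2141, 2259 and 2264 normalized counts, 0.11 on the log2 scale) and lower in all 3 Mrps12ep/ep livers (397.5, 392 and 426 against 504, 429 and 431, -0.16). The adjusted p-values were 1 and 0.709 and the unadjusted p-values 0.396 and 0.269 (limma). The limma intervals of the log2 difference ran from -0.17 to 0.39 in hearts and from -0.48 to 0.15 in livers. Neither interval thus fixed a direction. Of all tested genes, 8.03% were apart in this comparison in hearts and 12.8% in livers. How many of them were apart in opposite directions was not counted, and the difference between the tissues was not tested. Of the other clock genes and lists, none was apart in opposite directions in heart and liver.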

How the results depend on the processing

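The count of clock genes past the threshold was 0 of 10 in every comparison, and stayed at 0 under the alternatives run except in 2 comparisons. In Mrps12ha/ha against Mrps12+/+ hearts it was 7 with array weights and 0 to 4 with 1 mouse left out, and in Mrps12ha/ha against Mrps12ep/ep hearts 6 and 0 to 5, in both cases reaching the upper value without Mrps12ha/ha mouse 2. Of all tested genes, 5573 and 6314 passed with array weights and 4320 and 3728 without that mouse, where 5 and 4 did with all mice. The replicate block left the count at 0 of 10 in all 6 comparisons. Same-numbered mice did not deviate together throughout (r of -0.23 to 0.58 over the pairs of genotypes). Between Mrps12ep/ep and Mrps12+/+ hearts, r was 0.58, 0.41 and -0.07 for mice 1, 2 and 3. With 3 mice a group, these values cannot tell whether the numbers pair the mice. Of the 12 relations, 2 passed, and 0 did on values centred within genotype, 1 without the 2 farthest mice, 1 on recovered reads scaled to depth and 1 to 4 with 1 mouse left out. Some log2 fold changes of clock genes turned sign, none of them past the threshold. They were Cry2 in Mrps12ep/ep against Mrps12+/+ hearts -0.006 with re-centring, Nr1d2 in Mrps12ep/ep against Mrps12+/+ hearts 0.086 with array weights, Per1 in Mrps12ha/ha against Mrps12ep/ep hearts 0.006 with array weights, Cry1 in Mrps12ha/ha against Mrps12ep/ep hearts -0.12 with array weights and Cry2 in Mrps12ha/ha against Mrps12ep/ep hearts -0.070 with array weights. With 1 mouse left out, the range was Per3 -0.088 to 0.18, Cry2 -0.13 to 0.12, Per2 -0.15 to 0.14, Clock -0.051 to 0.097, Npas2 -0.18 to 0.43, Nr1d2 -0.15 to 0.076 and Arntl -0.023 to 0.30 in Mrps12ep/ep against Mrps12+/+ hearts. With 1 mouse left out, the range was Per2 -0.21 to 0.15 and Arntl -0.29 to 0.69 in Mrps12ha/ha against Mrps12+/+ livers. With 1 mouse left out, the range was Per3 -0.16 to 0.41, Per1 -0.081 to 0.18, Clock -0.023 to 0.075 and Nr1d2 -0.076 to 0.18 in Mrps12ep/ep against Mrps12+/+ livers. With 1 mouse left out, the range was Nr1d1 -0.14 to 0.41 in Mrps12ha/ha against Mrps12ep/ep livers. The cause of these changes was not tested. For clock genes no sign changed in Mrps12ha/ha against Mrps12+/+ hearts. The planned count models were not run. In their place limma-voom on recovered reads was added after seeing the data, as were relations with 1 mouse left out. Depth limits Npas2 in the liver (2 to 155 reads) and the 2 shallowest hearts, both Mrps12ha/ha, and with 3 mice a group the exact test cannot go below 0.1.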
